A study of Mus musculus with 12 samples.

Results

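The cecum of cauterized mice held 23 genes whose transcripts were raised at 3 h and were under set limits at 12 h and 72 h, among 27242 named genes measured. These genes were chosen on their measured values. For each gene name the brightest probe was taken, its log2 intensity was taken relative to the array's 75th percentile, and it had to be well above background on all 3 arrays at 3 h. The group mean minus the sham mean had to be at least 1.5 at 3 h, below 0.75 at 12 h and below 0.5 at 72 h, with no lower limit at either later time. These limits allowed part of a rise to remain. In Krt15, Myc, Mt1, Plscr1, Nipal1 and Azin1 every 12 h array was above every sham array, and in Akap12 every 72 h array was. At 72 h 14 of the 23 genes were within 0.5 of sham and 9 were further below it. The differences from sham given for these genes therefore describe what the rule selected and carry no test.

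RNA from whole cecum of C57BL/6 mice was hybridised to 1-colour Agilent arrays in 4 groups of 3 mice, described in the study's methods as biological triplicates. The control group had a sham operation and was taken at 0 h, and the other 3 groups were taken at 3, 12 and 72 h after the cecum had been cauterized with bipolar forceps through an abdominal incision under pentobarbital. No other agent or allele was named for any group, and ages were not given in the sources used here. Since the sham group was taken at 0 h, the effects of anaesthesia, incision and time of day cannot be told apart from that of cauterization at any time point.

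On each array 60.2% to 65.2% of the 56605 probes passed as well above background, no spot was saturated, and replicate arrays correlated at 0.985 to 0.992 over probes. The sham and 3 h arrays lay on 1 slide, the 72 h arrays on another, and the 12 h arrays were split with replicate 3 on the second slide, so that the 72 h group can be told apart from its slide only through 1 array. The labels call all mice male, but Xist, an X-linked transcript of females, was detected above background on every one of the 12 arrays, while the Y-linked Ddx3y and Eif2s3y were so on 0 arrays, Uty on 1 sham array and Kdm5d on all 12. These 5 genes were called at none of the 3 times against sham, and the labelled sex was used in no comparison. All 14 markers of large intestinal epithelium and all 8 of smooth muscle were above background on the sham arrays, as were 5 of 10 markers of the exocrine pancreas. Among the pancreas markers that were not, Prss1, Prss2 and Pnlip were above background on 0 arrays.

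Injured tissue makes new transcripts in waves. Immediate early genes such as Myc and Fos need no new protein synthesis and often have short-lived mRNAs, so their levels can rise and fall within hours, and the proteins they encode act on later genes. Cytokines and chemokines made in the first hours call in neutrophils and macrophages, whose own transcripts then add to those of the tissue. In whole tissue, fewer cells of a type and less RNA per cell cannot be told apart.

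The 23 genes were few among the early responders. A rise of at least 1.5 on the log2 scale at 3 h, with all 3 h arrays above background, was found for 531 genes, of which 394 were beyond both later limits, 98 met only the 72 h limit, 16 met only the 12 h limit, and 23, or 4.33%, met both. The median difference of the 531 genes was 2.34, 2.56 and 1.71 at the 3 times in order. The 23 genes had medians of 1.85, 0.17 and -0.37, against 0.05, -0.04 and -0.14 over all genes. The plot of the 531 genes at later times shows that most early genes stayed raised, and that none of the 23 was among those with the largest early rise, since their 3 h differences ran from 1.59 to 2.70.

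**Figure D1:**
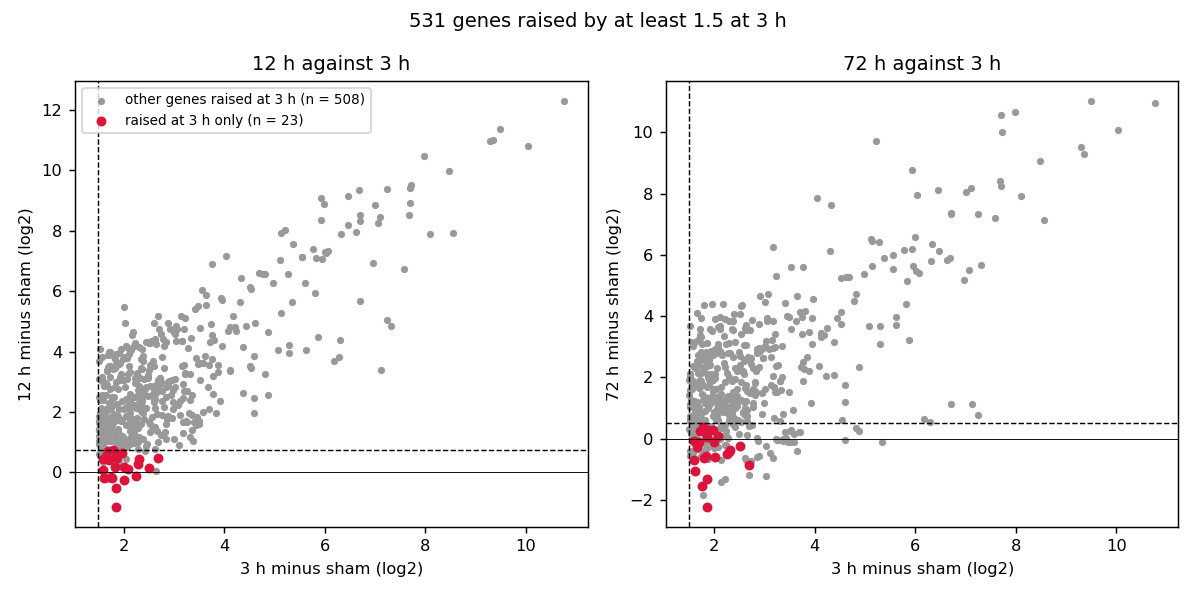
Each point is 1 of 531 genes, with the 3 h minus sham difference (log2) on the horizontal axis and the 12 h (left) or 72 h (right) minus sham difference (log2) on the vertical axis, with the limits of 1.5, 0.75 and 0.5 as dashed lines. The 23 genes raised at 3 h only, in red, lie at the lower left with 3 h differences of 1.59 to 2.70, while the other genes, in grey, are mostly above the dashed horizontal lines.

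Of the 23 genes, 17 encode proteins, 5 are annotated as long non-coding RNAs in RefSeq, and Gm33626 had no match there. Long non-coding RNAs made up 15.9% of all genes with an annotated type and 6.47% of the 531 raised genes with one. By what the proteins are known to do, the genes fell into secreted cytokines (Tslp and Il12b), transcription factors (Myc, Hand1, Grhl1, Foxn1 and Lhx3), enzymes, scaffolds and metal or polyamine regulators (Pim3, Akap12, Plscr1, Mt1, Azin1 and Nipal1), structural proteins of epithelium and lens (Krt15, Crnn and Crybb3), and the ephrin receptor Epha6. The genes lay on 13 chromosomes. Chromosome 15 held 5 of them, namely Azin1, Myc, LOC105245970, Pim3 and Gm32677, where it held 3.83% of all genes and 5.27% of the 531 raised genes. The closest pair was Lhx3 and Gm13398 on chromosome 2, whose probes were 0.84 Mb apart.

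RefSeq promoters of the GRCm38.p6 build, taken as the 250 bases before an annotated start, were at hand for 15 of the 23 genes in 17 entries, with 32851 entries in all. They are shown for 4 of the genes whose windows hold short motifs of factors known for early responses. Windows of Gm19619 and Lhx3 also hold such matches and are not shown. Capitals mark matches, on either strand, to AP-1 (TGANTCA), to the first bases of the cAMP response element (TGACG), to a heat shock element (GAANNTTC), to a STAT motif (TTCNNNGAA), to the TATA box (TATAAA) and to a palindromic glucocorticoid response element.
Mt1, chr8:94178839-94179088, plus strand: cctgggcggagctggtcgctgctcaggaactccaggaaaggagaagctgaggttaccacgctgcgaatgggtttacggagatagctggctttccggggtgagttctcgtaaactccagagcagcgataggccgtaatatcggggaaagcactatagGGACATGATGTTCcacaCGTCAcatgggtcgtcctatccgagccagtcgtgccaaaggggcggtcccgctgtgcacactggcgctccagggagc
Plscr1, chr9:92249944-92250193, plus strand: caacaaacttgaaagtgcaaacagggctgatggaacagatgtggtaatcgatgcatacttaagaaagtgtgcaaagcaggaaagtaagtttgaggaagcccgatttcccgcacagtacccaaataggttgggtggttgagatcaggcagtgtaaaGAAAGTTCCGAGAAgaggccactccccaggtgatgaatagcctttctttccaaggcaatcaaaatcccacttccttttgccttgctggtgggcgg
Il12b, chr11:44399813-44400062, plus strand: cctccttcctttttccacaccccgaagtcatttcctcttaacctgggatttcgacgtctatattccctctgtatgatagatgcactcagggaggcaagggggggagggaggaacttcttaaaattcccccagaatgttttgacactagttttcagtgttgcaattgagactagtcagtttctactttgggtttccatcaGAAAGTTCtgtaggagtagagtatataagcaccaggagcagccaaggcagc
Crnn, chr3:93144539-93144788, plus strand: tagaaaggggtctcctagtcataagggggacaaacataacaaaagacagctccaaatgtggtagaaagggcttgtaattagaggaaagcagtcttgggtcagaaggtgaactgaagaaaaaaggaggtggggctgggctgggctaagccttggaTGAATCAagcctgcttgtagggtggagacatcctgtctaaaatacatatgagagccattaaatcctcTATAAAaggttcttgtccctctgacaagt

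In these windows Mt1 held the glucocorticoid response element and, nearer the start, TGACG on the minus strand, Plscr1 held a heat shock element that shares 3 bases with a STAT motif, Il12b held a heat shock element, and Crnn held an AP-1 motif and a TATA box. Mt1 has more than 1 annotated start in RefSeq, and the window precedes only 1 of them. That is an upstream start, which may not be the main start of the gene. Among all 32851 entries the shares with a match were 0.387% for the glucocorticoid response element, 6.69% for the heat shock element, 7.02% for the STAT motif, 6.75% for AP-1, 17.8% for TGACG and 12.4% for TATAAA. Among the 17 entries of the 23 genes, matches were found in 1 for the glucocorticoid response element, 2 for the heat shock element, 1 for the STAT motif, 1 for AP-1, 3 for TGACG and 2 for TATAAA. The letters of the NF-kB motif and of the serum response element were in 0 of the 17, where they were in 1.41% and 1.47% of all entries. A metal response element core (TGCNCNC) was in 10 of the 17 entries and in 44.4% of all entries. The windows of Mt1, Plscr1 and Il12b shown above are among the 10, and this core is not marked in them. Such matches describe letters in a window only.

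Over the whole group, the 3 h arrays stood apart from all the others. In 22 of the 23 genes every 3 h array was above all 9 other arrays, which was so for 6.99% of all genes, and 22 genes also passed a fold change above 2 with a limma adjusted p below 0.05 at 3 h, which 3.67% of all genes did in the upward direction. Both counts follow from the rule, and nothing is read from them. The gene outside both counts was LOC105245970. The map of differences by array shows the 3 h arrays as a block, with pale values on most sham, 12 h and 72 h arrays and a few genes below sham at 72 h.

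**Figure D2:**
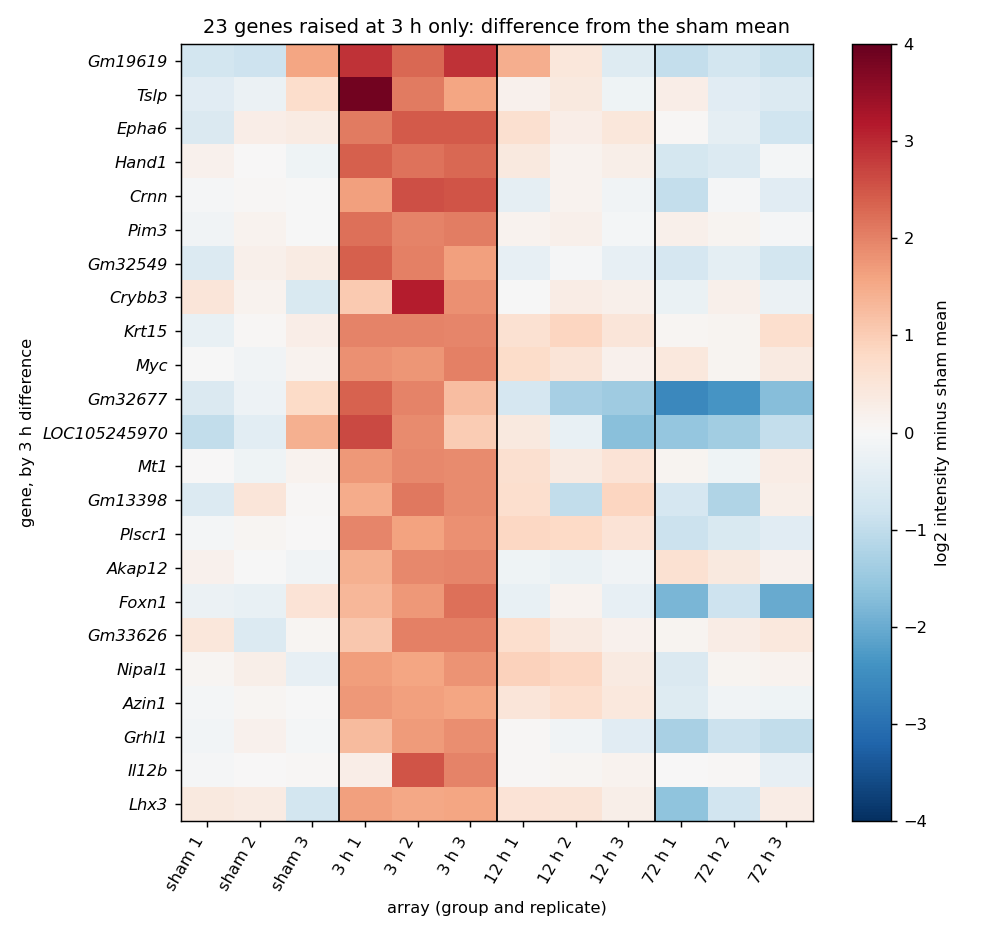
Rows are the 23 genes in order of their 3 h difference and columns are the 12 arrays, with the colour giving log2 intensity minus the mean of the 3 sham arrays. Red cells mark higher and blue cells lower values, and the 3 h columns are red in every row except Il12b on 3 h replicate 1, while Gm32677 and Foxn1 are blue at 72 h.

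Tslp, thymic stromal lymphopoietin, is a cytokine that epithelial cells release on damage (NM_021367, chromosome 18, 32978885 to 32978944 of mm9). Its values were -4.67, -4.47 and -3.54 for sham, -0.37, -2.16 and -2.64 for 3 h, -4.05, -3.84 and -4.40 for 12 h, then -3.96, -4.67 and -4.76 for 72 h. All 3 h arrays were above all others, but they differed among themselves, with replicate 1 far above the other pair. The 3 h minus sham difference was 2.503 (standard error 0.53), followed by 0.13 and -0.24 at the later times. Without replicate 1 at 3 h the difference was 1.83. Il12b encodes the p40 subunit shared by interleukin-12 and interleukin-23 (NM_001303244, chromosome 11, 44226781 to 44226840). Its values were -4.93, -4.87 and -4.83 for sham, -4.60, -2.35 and -2.89 for 3 h, -4.84, -4.81 and -4.73 for 12 h, then -4.85, -4.83 and -5.21 for 72 h. The rise of 1.60 (standard error 0.44) rested on 3 h replicates 2 and 3, since replicate 1 was close to the sham arrays. Without either of those 2 arrays Il12b did not meet the rule.

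Genes that act beside these cytokines gave other time courses. Il33, another epithelial alarm cytokine, was higher by 3.21, 3.57 and 3.42 at the successive times (limma adjusted p = 8.88e-06, 3.65e-06 and 6.73e-06), and Crlf2, the receptor chain of Tslp, was called only at 72 h among the 3 times, with 1.1 (limma adjusted p = 0.000339). Il23a, the p19 subunit that pairs with p40 in interleukin-23, was above background on 0 sham arrays and rose at least 3.41-fold, then 4.01-fold, then 1.90-fold over the 3 times (limma adjusted p = 0.00261, 0.00144 and 0.00809). Il12a, the partner in interleukin-12, had -0.58 at 3 h (limma adjusted p = 0.454) and was called at none of the 3 times. Of the 56 measured early cytokines and growth factors, upward calls numbered 36, 35 and 27 at 3, 12 and 72 h, with medians of 2.16, 1.99 and 1.05. Calls at 12 h and 72 h in the upward direction covered 4.64% and 5.51% of all genes. Tslp and Il12b were the 2 genes of this list called at 3 h and at neither later time.

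Myc is the growth-promoting transcription factor of the immediate early class (NM_010849, chromosome 15, 61821417 to 61821476). It was at -0.23, -0.36 and -0.07 for sham, 1.61, 1.54 and 1.79 for 3 h, 0.50, 0.29 and -0.03 for 12 h, then 0.19, -0.12 and 0.16 for 72 h. The 3 h arrays lay close together and far above the rest, the 12 h arrays remained just above the sham arrays, and the 72 h arrays overlapped them. Its differences were 1.86 (standard error 0.16), 0.47 and 0.30, and a second probe gave 1.76, 0.74 and 0.60. By the second probe, above background on all 12 arrays, Myc would not have met the 72 h limit. Mycn and Mycl, its paralogs, had -0.89 and 0.05 at 3 h and were not called, nor was its partner Max (-0.16). With slide as a block the 72 h value of Myc was 0.73, beyond the limit of the rule.

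The immediate early transcription factors were mostly not confined to 3 h. Of 43 measured genes, upward calls numbered 23, 20 and 17 in order of time, with 14 called at all 3 times and 1 called lower at 72 h, where 4.47% of all genes were. The medians were 1.09, 0.91 and 0.30. Besides Myc, 4 genes of this list were called at 3 h and at neither later time, and these were named after their values were seen. Jun had 1.09, 0.42 and -0.20, Fos had 1.15, 0.81 and 0.29, Ier2 had 1.02, 0.82 and 0.16, and Egr4 was above background on 0 sham arrays. The 3 h differences of Jun, Fos and Ier2 were below the limit of 1.5, and Egr4 was above background on 1 array at 3 h. The change between 3 h and 12 h was not tested for any of them.

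Genes that Myc is known to drive were given as a list of 40 ribosome biogenesis genes. Of these, 8, 1 and 0 were called higher in order of time, with medians of 0.80, 0.60 and -0.06. Gnl3, a nucleolar GTPase, had 1.67 at 3 h (limma adjusted p = 0.00142) and was called at 12 h with 1.22. The other 7, among them Wdr43 (1.24 at 3 h and 0.63 at 12 h), Rrp1b (1.23 and 0.72) and Nip7 (1.21 and 0.95), were not called at 12 h. The 12 h values of these 7 genes ran from 0.60 to 0.95.

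The other transcription factors were tissue regulators. Hand1, a basic helix-loop-helix factor of heart and lateral mesoderm (NM_008213, chromosome 11, 57642342 to 57642401), was at -1.13, -1.28 and -1.46 for sham, 1.103, 0.89 and 1.01 for 3 h, -0.88, -1.13 and -1.07 for 12 h, then -1.998, -1.84 and -1.36 for 72 h. The 3 h arrays lay well above all others, and the 3 differences from sham, in order of time, were 2.29 (standard error 0.17), 0.26 and -0.45. A second probe assigned to Hand1 was above background on 1 of 12 arrays and gave 0.02. Its paralog Hand2 fell at 3 h by 1.27 on the log2 scale (limma adjusted p = 0.0216). Genes called lower made up 4.52% of all genes at 3 h.

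Grhl1, a grainyhead-like factor of epithelium (NM_145890, chromosome 12, 25301994 to 25302053), was at -1.78, -1.51 and -1.75 for sham, -0.40, 0.02 and 0.16 for 3 h, -1.62, -1.83 and -2.14 for 12 h, then -2.99, -2.54 and -2.66 for 72 h. It was raised at 3 h by 1.61, near sham at 12 h (-0.18), and below every sham array at 72 h (-1.05). Foxn1, a factor of thymic and hair follicle epithelium (NM_008238, chromosome 11, 78171960 to 78172019), was at -4.78, -4.84 and -4.003 for sham, -3.22, -2.82 and -2.34 for 3 h, -4.83, -4.40 and -4.88 for 12 h, then -6.36, -5.35 and -6.56 for 72 h. It followed the same order, with 1.75, -0.16 and -1.55, at a low level, and since it was above background on 1 of the 72 h arrays its 72 h value is a measured mean of mostly dim spots. Grhl2 and Grhl3 were not called at any time, with 0.16 and -0.61 at 3 h, and Foxn2 was higher at 3 h and 12 h, with 1.09 and 1.29 (limma adjusted p = 0.00148 and 0.000413).

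Lhx3, a LIM homeobox factor of pituitary and motor neurons (NM_001039653, chromosome 2, 26055746 to 26055805), had the smallest difference in the group, 1.59 (standard error 0.43). Its values were -1.40, -1.45 and -2.51 for sham, -0.14, -0.24 and -0.22 for 3 h, -1.25, -1.26 and -1.56 for 12 h, then -3.38, -2.56 and -1.49 for 72 h. The 3 h arrays were within 0.10 of each other while the sham and 72 h arrays were scattered. A second Lhx3 probe, above background on all 12 arrays and nearly as bright, gave 0.02 at 3 h, so that the 2 probes did not agree and the rise rests on 1 probe.

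Pim3 encodes a serine/threonine kinase that promotes survival and growth (NM_145478, chromosome 15, 88695626 to 88695685). It was at -0.31, -0.01 and -0.17 for sham, 2.02, 1.83 and 1.89 for 3 h, -0.02, 0.05 and -0.24 for 12 h, then 0.04, -0.05 and -0.23 for 72 h. The sham, 12 h and 72 h arrays overlapped, and the 3 h arrays lay well above them, with 2.08 (standard error 0.13), 0.10 and 0.09. Pim3 met the rule under all 22 alternative settings that kept its limits. It missed the rule with limits of 0 at 12 h and 72 h. Its paralog Pim1 was higher at all 3 times, by 1.45, 2.36 and 1.37 (limma adjusted p = 0.00177, 8.84e-05 and 0.00221), and Pim2 was called at 12 h, with 1.15 (limma adjusted p = 0.0153).

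**Figure D3:**
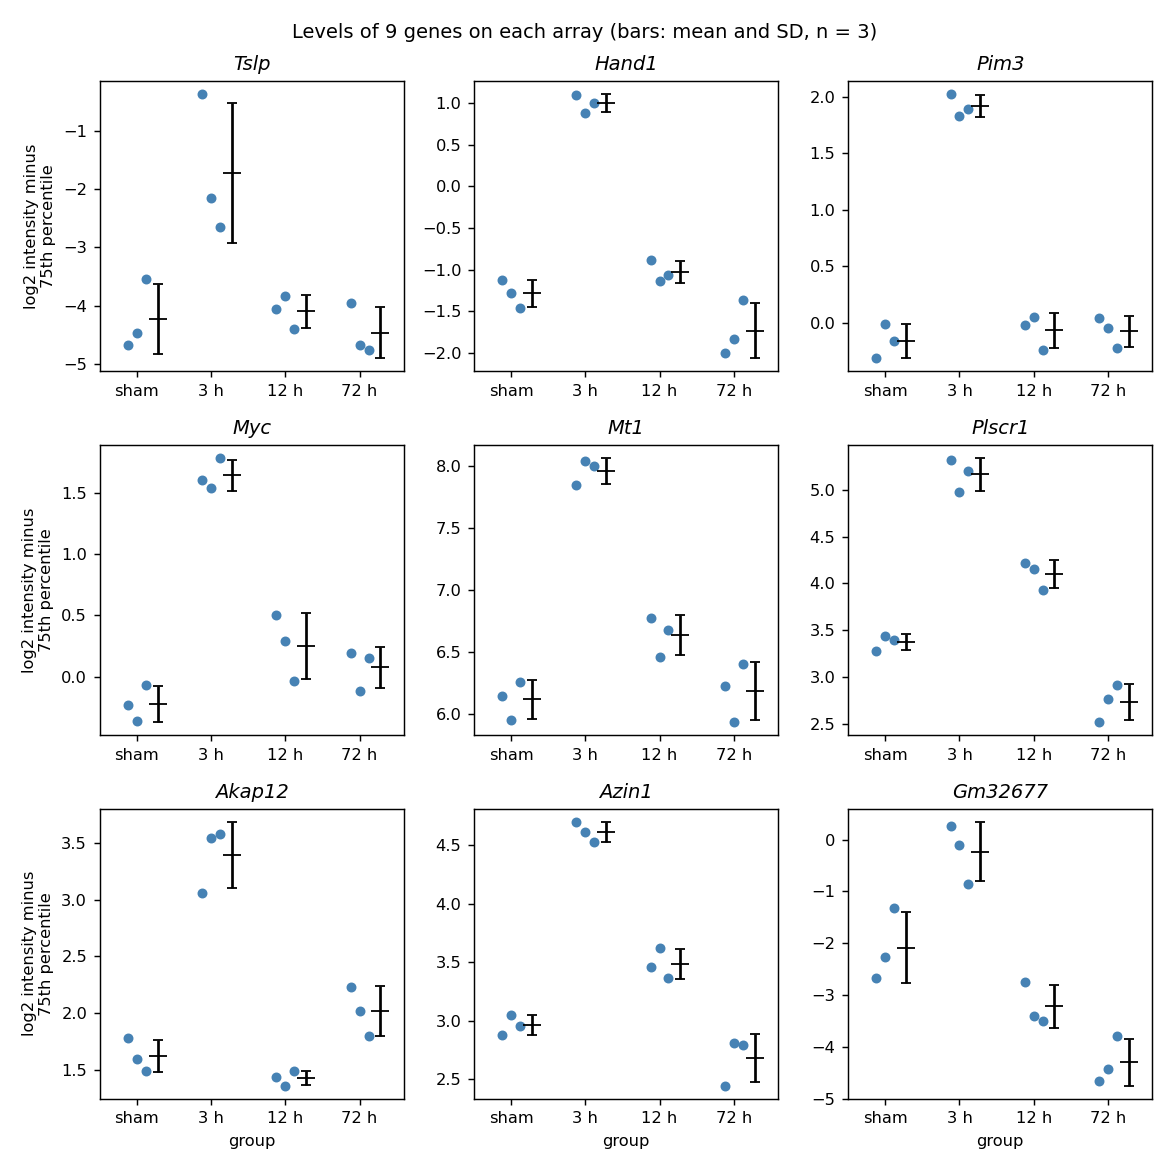
Each panel gives 1 gene, with the 4 groups on the horizontal axis and log2 intensity relative to each array's 75th percentile on the vertical axis, where points are single arrays and the black bars give the mean and SD of 3 arrays. In all 9 panels the 3 h points lie above every other point, and for Gm32677, Plscr1 and Azin1 the 72 h points lie below the sham points.

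Mt1, a zinc- and copper-binding metallothionein (NM_013602, chromosome 8, 96704165 to 96704224), was by far the brightest of the 23 genes, at the 98.8th percentile of all genes in sham. It was at 6.15, 5.95 and 6.26 for sham, 7.85, 8.04 and 8.0 for 3 h, 6.78, 6.46 and 6.68 for 12 h, then 6.23, 5.94 and 6.404 for 72 h. The 3 h arrays were above all others, the 12 h arrays just above the sham arrays, and the 72 h arrays among them, with differences of 1.84 (standard error 0.15), 0.52 and 0.07. A dimmer probe of Mt1, upstream of the first and assigned to the transcript model XM_006530752, gave 3.21, 0.90 and 0.85, so that by this probe the gene would not have met the later limits. Mt1 and its close paralog Mt2 share sequence, and how far their probes tell them apart was not tested.

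Mt2 rose by 2.96 at 3 h and 1.80 at 12 h (limma adjusted p = 8.88e-06 and 7.49e-05) and had 0.82 at 72 h, below the fold threshold. Mt4 was called at 3 h alone, with 1.45 (limma adjusted p = 0.00322), and Mt3, Mtf1 and the zinc exporter Slc30a1 were called at none of the 3 times. Slc39a14, also listed with Mt1, was called higher at 12 h and 72 h, with 1.04 and 1.09 (limma adjusted p = 0.002 and 0.00202). In the list of 18 metallothionein and oxidative stress genes 5, 7 and 3 were called higher in turn, with medians of 0.60, 0.68 and -0.26. Mt1 was also among 30 glucocorticoid induced genes, with upward calls for 13, 8 and 6 of them and downward calls for 2, 5 and 4 in order of time. The medians were 0.64, 0.09 and -0.01. Fkbp5, a chaperone of the glucocorticoid receptor, rose by 1.39 (limma adjusted p = 0.00082) and then stood at -0.06 and -0.64, just short of the 3 h limit. Cdkn1a, an inhibitor of the cell cycle, had 1.12, 0.12 and -0.55, and both were named after their values were seen.

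Azin1, an inhibitor of antizyme that protects ornithine decarboxylase from breakdown (NM_001102458, chromosome 15, 38419652 to 38419711), was at 2.88, 3.05 and 2.96 for sham, 4.70, 4.61 and 4.53 for 3 h, 3.46, 3.62 and 3.37 for 12 h, then 2.44, 2.81 and 2.79 for 72 h. The arrays of each group agreed closely, with the 12 h arrays between those of 3 h and sham and the 72 h arrays below sham, and the differences were 1.65 (standard error 0.13), 0.52 and -0.28. Odc1, ornithine decarboxylase itself, was higher at 3 h by 1.12 (limma adjusted p = 0.00466) and was not called at 12 h (0.53) or 72 h (-0.44). Srm, the spermidine synthase, was called at 3 h and 12 h, with 1.12 and 1.26 (limma adjusted p = 0.0154 and 0.00749). Azin2 had -0.60 at 3 h and was not called. Of the other genes listed with Azin1, Sat1 was called higher at 12 h, with 1.13 (limma adjusted p = 0.000252). Oaz1, Oaz2 and Sms were called at none of the 3 times.

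**Figure D4:**
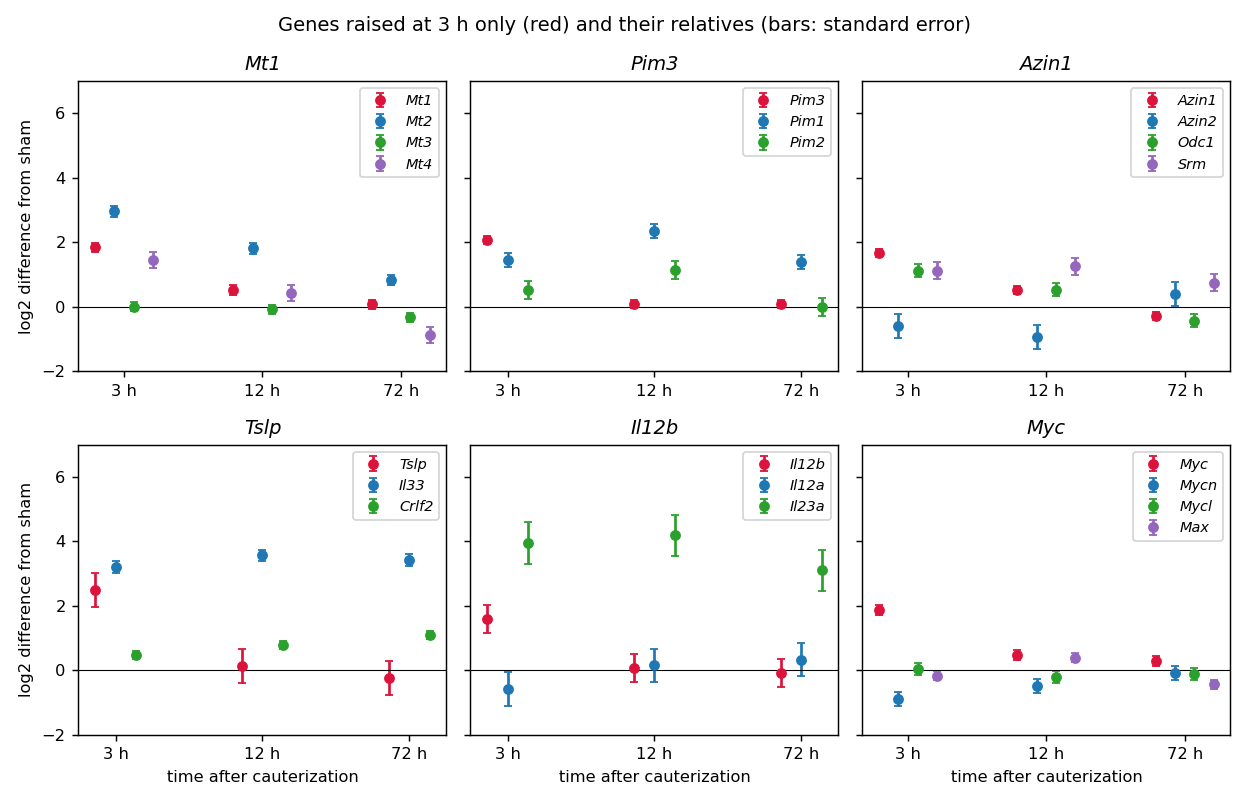
Each panel gives 1 gene raised at 3 h only, in red, with genes related to it in other colours, the time after cauterization on the horizontal axis and the log2 difference from sham with its standard error on the vertical axis. The red points fall from between 1.6 and 2.5 at 3 h to near 0 at 72 h, while Il33, Pim1 and Il23a stay above 1 at all 3 times (Il23a was above background on 0 sham arrays, so its points are fitted values and no fold change).

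Plscr1, a phospholipid scramblase known to be induced by interferon (NM_011636, chromosome 9, 92164754 to 92164813), was at 3.28, 3.44 and 3.40 for sham, 5.32, 4.98 and 5.19 for 3 h, 4.21, 4.16 and 3.93 for 12 h, then 2.52, 2.77 and 2.91 for 72 h. Groups did not overlap at all, in the order 3 h, 12 h, sham and 72 h, with differences of 1.79 (standard error 0.14), 0.72 and -0.64. Its 12 h value was the closest of all to the limit, and with the 12 h arrays of the first slide alone it was 0.81, past it. Plscr4 fell by 1.26 at 3 h on the log2 scale (limma adjusted p = 0.00689), Plscr2 fell at 72 h by 1.44 (limma adjusted p = 0.00241), and Plscr3 was higher at 72 h by 1.003 (limma adjusted p = 0.00103).

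Akap12, a scaffold that anchors protein kinases A and C (NM_031185, chromosome 10, 5987207 to 5987266), was at 1.78, 1.60 and 1.497 for sham, 3.06, 3.54 and 3.58 for 3 h, 1.45, 1.37 and 1.49 for 12 h, then 2.24, 2.02 and 1.80 for 72 h. At 12 h all arrays were just below the sham arrays and at 72 h just above them, after the rise of 1.77 (standard error 0.16) at 3 h. Nipal1, a member of a family of magnesium transporters (NM_001081205, chromosome 5, 73061466 to 73061525), had 1.69, 0.71 and -0.11, and a second probe gave 1.78, 0.79 and -0.02. By the second probe Nipal1 would not have met the 12 h limit. With 12 h replicates 1 and 2 alone, the arrays that shared a slide with sham, its 12 h value was 0.88 and it missed the rule. Nipal2, Nipal3, Nipa1 and Nipa2 were called at none of the 3 times.

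The structural genes were low in this tissue. Krt15, a keratin of basal cells in stratified epithelium, was at -4.75, -4.40 and -4.17 for sham, -2.45, -2.45 and -2.48 for 3 h, -3.81, -3.59 and -3.97 for 12 h, then -4.37, -4.33 and -3.78 for 72 h. Its 3 h arrays were the most alike of any gene in the group, with an SD of 0.015, and its differences were 1.98, 0.65 and 0.28. With slide as a block its 72 h value was 0.55, past the limit. Crnn, cornulin of squamous epithelium, was at -5.39, -5.28 and -5.34 for sham, -3.69, -2.74 and -2.83 for 3 h, -5.68, -5.19 and -5.47 for 12 h, then -6.29, -5.37 and -5.79 for 72 h. Replicate 1 at 3 h was lower than the other pair, though above every other array, and the gene was above background on 1 array at 12 h and on 1 at 72 h, so that its later values are also measured means of mostly dim spots.

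Crybb3, a beta crystallin of the lens, was at -2.92, -3.26 and -4.02 for sham, -2.36, -0.26 and -1.58 for 3 h, -3.42, -3.09 and -3.20 for 12 h, then -3.68, -3.21 and -3.64 for 72 h. The 3 h arrays spread over more than 2 on the log2 scale and the lowest was close to the highest sham array. Among genes of stratified epithelium, Krt17 was higher at 3 h by 2.21 (limma adjusted p = 0.000416), had 0.98 at 12 h and fell at 72 h by 1.30 (limma adjusted p = 0.00577). Lor and Sprr1a, of the cornified envelope, were called at 3 h and 12 h, with 1.91 and 1.21 for Lor and 1.47 and 1.19 for Sprr1a, which fell at 72 h by 2.44 on the log2 scale (limma adjusted p = 0.00116). Krt14 was higher at all 3 times, with 1.15, 2.03 and 2.99 (limma adjusted p = 0.00353, 0.000129 and 1.99e-05). Krt5, the usual partner of Krt14 and Krt15, had -0.58 at 3 h and was called at none. Krt1 (-0.36 at 3 h), Krt10 (0.45) and Trp63 (-0.19) were also called at none of the 3 times. The same held for Ivl and Sprr3, which were above background on 0 arrays.

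The remaining genes were dim or non-coding. Gm19619, Epha6, Gm32549 and Gm13398 were above background on 0 sham arrays, so their rise at 3 h is a bound, taken per array against whichever was higher in sham, the dimmest signal counted as well above background or that of the probe itself. They rose at least 2.30-fold, 1.59-fold, 2.61-fold and 1.86-fold, with measured means of -4.34, -4.88, -4.16 and -4.64 at 3 h and -7.04, -7.19, -6.17 and -6.47 in sham. Epha6, an ephrin receptor of the nervous system, had 2 more probes, of which one gave 0.28 and the other 2.21, and neither was above background on more than 1 array. Gm33626 was above background on 1 sham array and had 1.71 at 3 h.

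Gm32677, a long non-coding RNA on chromosome 15 (XR_384401, chromosome 15, 96674255 to 96674314), was at -2.66, -2.27 and -1.32 for sham, 0.26, -0.10 and -0.86 for 3 h, -2.75, -3.41 and -3.50 for 12 h, then -4.66, -4.43 and -3.79 for 72 h. It was highest at 3 h and below every sham array at both later times, with 1.85 (standard error 0.40), -1.14 and -2.21. LOC105245970 was at -4.30, -3.74 and -1.91 for sham, -0.68, -1.43 and -2.30 for 3 h, -2.93, -3.61 and -4.99 for 12 h, then -4.87, -4.70 and -4.28 for 72 h. Here the groups overlapped, since sham replicate 3 was above 3 h replicate 3, and the difference of 1.85 had a standard error of 0.68. It lay 5.02 Mb from Myc. Without sham replicate 3 the difference was 2.55, and without sham replicate 1 it was 1.36, under the limit. Sham replicate 3 was also the highest sham array of Gm32677, whose 3 h difference was 2.24 without it.

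What the rule left free was how far below sham the genes could go later. At 72 h 17 of the 23 genes had a difference below 0 and 9 below -0.5, where 66.3% and 20.9% of all genes were. Of the 17, 4 (Gm19619, Epha6, Gm32549 and Gm13398) were above background on 0 arrays in both groups. With slide as a block 13 were below 0 and 4 below -0.5, where 62.7% and 25.1% of all genes were, and the median of the 23 was -0.17 in place of -0.37. In 5 genes (Gm32677, Plscr1, Foxn1, Azin1 and Grhl1) every 72 h array was below every sham array, as in 26.6% of all genes. Gm32677, Foxn1 and Grhl1 passed the fold and limma thresholds as lower at 72 h, read against the same 4.47%. With slide as a block 0 of the 23 were called lower at 72 h, and the values were -1.79 for Gm32677, -1.29 for Foxn1 and -0.63 for Grhl1, while over all genes the count of lower calls was 394 in place of 1218. At 12 h 7 genes were below 0, Gm32677 and Akap12 were below sham on every array, as 24.5% of all genes were, and 0 were called lower, where 5.95% of all genes were. By 12 h the genes had lost between 58.1% and 161% of their 3 h difference, with a median of 90.5%. The limits at 3 h and 12 h built in a large part of this loss, so nothing is read from it.

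Cell type markers moved alongside. The summed level of 14 markers of large intestinal epithelium, in units of the 75th percentile of each array, was 1768 to 1861 in sham, and then ran from 2025 to 2136, from 1458 to 1768 and from 814 to 1082 over the 3 times, with 0 of 14 called at 3 h and 4 called lower at 72 h. That of 7 goblet cell markers was 931 to 1000.4, 1115 to 1185, 810 to 993 and 705 to 995. Neutrophil markers summed to 56.5 to 64.7 in sham, then to 247 to 418, 572 to 605 and 250 to 478, with 8, 11 and 9 of 13 called higher. Smooth muscle markers summed to 385 to 421 in sham and 206 to 253 at 3 h, with 3 of 8 called lower at 3 h and 8 of 8 at both later times. Fat cell markers summed to 17.5 to 38.2 in sham and 7.95 to 14.4 at 3 h, and ran from 6.21 to 182 at 72 h. Of 10 macrophage markers 9 were called higher at 72 h, and of 8 mesothelial markers 3 were called lower at 3 h and 3 higher at 72 h. The part of these shifts in the 23 genes was not tested.

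The other lists held none of the 23 genes. Of 53 signalling feedback inhibitors 27, 24 and 17 were called higher in order of time. Heat shock chaperones had 8 of 28, 6 and 1, and Hspa1a, an inducible Hsp70, rose by 6.18 at 3 h and 3.68 at 12 h and had 0.64 at 72 h. In order of time, upward calls numbered 9, 10 and 2 of 30 genes of the integrated stress and unfolded protein response, 4, 3 and 1 of 23 p53 targets, 7, 11 and 9 of 29 hypoxia induced genes, and 16, 14 and 17 of 31 vascular activation genes. Of 20 circadian clock genes 2, 2 and 3 were higher and 4, 6 and 4 lower, and of 26 fasting and lipid catabolism genes 2 were higher each time and 1, 5 and 7 lower. Over all 59 genes listed as relatives of the 23, 12, 12 and 8 were called higher in order of time, and Mt4, Odc1 and Krt17 were called higher at 3 h and at neither later time.

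The limits of the rule cut through a continuous range. Just inside the 3 h limit were Lhx3 (1.59), Il12b (1.60) and Grhl1 (1.61), and just outside were Pappa (1.497), Arl5b (1.491) and Abl2 (1.49). Plscr1 (0.72), Nipal1 (0.71) and Krt15 (0.65) were inside the 12 h limit, and Calcb (0.77), Tubb2a-ps2 (0.79) and Ctnnal1 (0.82) were outside it. At 72 h Akap12 (0.39), Myc (0.30) and Krt15 (0.28) were inside, and St3gal3 (0.67), Gm13889 (0.74) and Dok7 (0.89) were outside. With the 3 h limit at 1, 145 genes met the rule, and at 2, 8 did.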

How the data were processed

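Cecal RNA of 12 mice (4 groups of 3) was labelled with Cy3 and hybridised to 1-colour Agilent mouse gene expression arrays (SurePrint G3, 8x60K). The authors deposited the output of Feature Extraction 11.5.1.1, which gives each spot a background-corrected linear intensity that is not yet normalized between arrays. A second table deposited by the authors held log2 values from GeneSpring, which the study's methods describe as shifted by the 75th percentile. Its rows had medians of about 0 and so were centred. Its correlation with the values recomputed here was 0.9995 after the same centring. It served as an alternative. Scale and direction of that table were settled by this comparison.

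From the scanner output, control spots and spots flagged as outliers, 53 to 152 per array, were removed, repeated spots of a probe were merged by their mean, and log2 intensities were taken relative to the 75th percentile of their array. The probe of highest mean stood for each gene name, and names equal to the systematic or the probe name were dropped. Group means were fitted over all 12 arrays by limma (version 3.58.1, R version 4.3.3), with moderated tests of each time against sham and Benjamini-Hochberg adjustment over 56605 probes, and calls needed both an adjusted p below 0.05 and a change of more than 2-fold. The fit and the selection rule were tested on simulated data. Tables and figures were made with Python 3.11.15, pandas 2.3.3, numpy 2.4.6 and matplotlib 3.10.9.

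Groups came from the sample labels, and the time of the sham group from the study's methods. The 23 genes and all gene lists were chosen with earlier results of these data known. The named genes were the 15 with the largest 3 h differences among those above background on all sham arrays, the 5 largest among those on 0 sham arrays, members of the lists, genes next to the limits, the lowest at 12 h and 72 h, genes with disagreeing probes, and list genes with the largest called differences. The text departs from this in that it does not name all of the list genes, and genes chosen after their values were seen are marked. Relatives of the 23 genes were listed after these were known and before the values of the relatives were seen. The scanner output gave probe positions in mm9, with no genome of that build used here, so exons were not assigned. Promoters are from RefSeq, GRCm38.p6. Names of genes follow the array's design.

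Alternatives in processing were normexp with an offset of 50, and scaling by quantiles or by the 75th percentile of detected probes alone. Others were the authors' table, outlier spots kept, a filter on dim probes and other rules for the probe of a gene. The fit was varied by a block for slide or for replicate number, each time point with sham only, and eBayes with its trend and robust options. Further alternatives were other limits and thresholds, a t-test paired by replicate number, and leaving out each array. The number of arrays limits the precision.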

Additional observations from a re-analysis of the deposited data

Results flagged for a closer look

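In 6 of the 23 genes every array of a later group lay on the other side of sham from the 3 h arrays, and these opposite moves were not tested as a difference. Among the 23, 5 genes had every 72 h array below every sham array and 2 had every 12 h array so, where 26.6% and 24.5% of all genes did. Gm32677 was 1.85 above sham at 3 h, with a 12 h value of -1.14 and a 72 h value of -2.21. Foxn1, a factor of thymic epithelium, had 1.75 at 3 h and -1.55 at 72 h, where it was above background on 1 of 3 arrays, and Grhl1, a factor of epithelium, had 1.61 and -1.05. Plscr1 had 1.79 and -0.64, Azin1 had 1.65 and -0.28, and Akap12 had 1.77 at 3 h and -0.19 at 12 h. The rule set no lower limit at 12 h or 72 h. The 72 h arrays lay on another slide than the sham and 3 h arrays, and with slide as a block the 72 h values were -1.79 for Gm32677, -1.29 for Foxn1, -0.63 for Grhl1, -0.38 for Plscr1 and -0.11 for Azin1. With the 12 h arrays of the first slide alone, Gm32677 was at -0.996 and Akap12 at -0.22. With 3 arrays a group, no single array was examined for its distance from its group.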

How the results depend on the processing

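The number of genes meeting the rule was 23, and it was 10 with normexp background correction, 7 of them shared, 145 with a 3 h limit of 1, 8 with a 3 h limit of 2, and 6 with limits of 0 at 12 h and 72 h. With slide as a block it was again 23, but only 17 were shared, and Gm19619, Krt15, Myc, Plscr1, Gm33626 and Nipal1 missed the rule. Leaving out each array in turn gave 22 to 38 genes, the highest without 3 h replicate 1, and 11 of the 23 met the rule each time. Of the 23 genes 2, Pim3 and Mt1, met it under all 22 settings that kept its limits, and 14 under at least 20 of these. Both missed it with limits of 0 at 12 h and 72 h, and Mt1 also with a 3 h limit of 2. Of 499 recomputed 3 h differences of single genes 474 stayed within 1 SD of the value reported, 25 moved further and 0 changed sign. Many of the 499 could not move. Leaving out a 12 h or 72 h array, or adding a block for slide or replicate number, leaves a 3 h difference unchanged. Under normexp the 7 shared genes, Hand1, Pim3, Myc, Mt1, Plscr1, Akap12 and Azin1, had 3 h differences of 1.59 to 1.92. The other genes missed the rule with normexp, with differences from 0.26 for Gm13398 to 1.43 for Nipal1. Among them were Tslp (1.11), Foxn1 (0.58) and Il12b (0.53). The count called higher at 3 h among the 23 was 22. It was 13 with normexp and 19 to 22 without each array in turn. With a t-test paired by replicate number it was 0 after Benjamini-Hochberg adjustment (15 at an unadjusted p below 0.05).

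Over all genes, calls higher than sham numbered 1001 at 3 h, 1264 at 12 h and 1500 at 72 h. They were 573, 757 and 832 with normexp, and 2587, 2631 and 2596 with no fold change threshold. A t-test paired by replicate number gave 0, 1 and 0 after Benjamini-Hochberg adjustment, against 816, 1120 and 1192 at an unadjusted p below 0.05. The study's methods name a paired t-test among their general statistics and name no test for the array calls. With slide as a block 540 were higher at 72 h. Leaving out each array gave 894 to 1079 at 3 h, 1121 to 1310 at 12 h and 1254 to 1579 at 72 h.

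Deviations from the group mean correlated at -0.19 to 0.089 (median 0.0062) between arrays of the same replicate number. Between arrays of other numbers they correlated at -0.15 to 0.16 (median -0.0060). Whether the numbers pair the mice cannot be settled from this, since each group held 3 arrays centred on their own mean. With the replicate block the same 23 genes met the rule. This was fixed in advance, since each group held the same replicate numbers and the block leaves group differences unchanged. Of the 23 genes 21 were then called higher at 3 h, and over all genes 972, 1237 and 1442 were higher at the 3 times. Signal over background limits the dim genes: 16 of the 23 were above background on all 12 arrays.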
